A study of Mus musculus with 10 samples.

Results

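The Regnase family and the Roquin RNA-decay partners were followed here as 9 genes among the 33393 genes of the deposited tables, chosen by gene symbol with earlier results of these data known, by a rule that uses no measured value. They are the Regnase genes Zc3h12a, Zc3h12b, Zc3h12c and Zc3h12d, the Roquin genes Rc3h1 and Rc3h2, and Malt1, Upf1 and N4bp1. Together they have 33 of the 95912 transcripts in the tables, and 16 of the 33 are annotated as protein coding. RNA came from CD34- HSCs, which are hematopoietic stem cells sorted from bone marrow by the absence of lineage markers, CD34 and Flt3 and the presence of Sca-1 and c-Kit. The mice were C57BL/6 and 8 weeks old. Controls were Reg1flox/flox mice, and the other group was labelled Vav1-iCre; Reg1flox/flox, written Reg1Δ/Δ here. All animals thus carried the floxed Regnase-1 gene, and only the second group also carried the Cre driver, so an effect of Cre itself and an effect of the deletion cannot be told apart. The Vav1 promoter drives Cre in blood-forming cells in general, so the deletion is not limited to stem cells. There were 5 libraries per group in 2 library sets, named in 2 ways in the labels and given by the study as independent experiments, with 3 libraries per group in set 1 and 2 per group in set 2. Nothing in the labels says that each library was a separate animal, so the p values measure the spread between these libraries.

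Regnase-1, the protein of Zc3h12a, is an endoribonuclease with a CCCH zinc finger that cuts mRNAs of inflammation at stem-loops in their 3′ untranslated regions (3′ UTRs), with the helicase UPF1 as its partner. Roquin-1 and Roquin-2 bind stem-loops of the same kind through their ROQ domain and recruit deadenylases. MALT1 is the protease of the CARD-BCL10-MALT1 (CBM) complex and cleaves Regnase-1, both Roquins and N4BP1 after receptor signalling, which frees their targets from decay. Regnase-1 is also known to act on its own mRNA.

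Stem-loops were searched in the 3′ UTRs on the transcript strand, as 5 Watson-Crick pairs that close a loop of 3 bases of the order pyrimidine, purine, pyrimidine. They are shown because this is the shape that both protein families read. The loop is in capitals, the stem is the 5 bases on either side of it, and 3 more bases flank each stem.
Zc3h12a, first: ttgatacaCATtgtatctc
Zc3h12a, second: ttaggcacCATgtgcctgc
Zc3h12a, last: gatttaaaTATtttaaatg
Rc3h1: ataacttcTGTgaagttgc
Rc3h2: ttaacttcTGTgaagttgt
Zc3h12c: atctgaacCATgttcagca
The stem and loop of the Zc3h12a sequences lie at chr4:125119070-125119082, chr4:125118888-125118900 and chr4:125118664-125118676 on the minus strand of GRCm38, all within the 3′ UTR of the last exon of Zc3h12a-201. Rc3h1 and Rc3h2 held more stem-loops than are shown, and the pair shown is the one with the longest shared run. The Rc3h1 stem-loop shown lies at chr1:160971661-160971673 on the plus strand, and that of Rc3h2 at chr2:37373810-37373822 on the minus strand. The Roquin genes share an unbroken run of 17 bases there, taacttcTGTgaagttg. The Zc3h12c stem-loop lies at chr9:52113470-52113482 on the minus strand.

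The 3′ UTR of Zc3h12a held 3 such stem-loops in 856 bases, or 3.50 per kilobase. Over the 21037 genes with an annotated 3′ UTR the density was 0.189 per kilobase, and 21.2% of genes held at least 1. Among the 2835 genes whose 3′ UTR was of like length (0.8 to 1.25 times), 16.1% held at least 1 and 0.106% held as many as Zc3h12a or more. In each such comparison the gene itself is counted among the genes of like length. Rc3h1-202 held 4 in 7181 bases, 2 of which overlap in a run of alternating A and T, and 4.78% of genes of like length held as many or more. Rc3h2-202 held 2 in 5331 bases, against 27.5% of genes of like length with as many or more. Malt1 held 1 in 2642 bases, where 38.9% of genes of like length held at least 1, and Zc3h12c held 1 in 4062 bases, where 51.6% of genes of like length held at least 1. No match was found in the 3′ UTRs of N4bp1, Upf1, Zc3h12b and Zc3h12d, which says only that these letters are not in those windows. The search took in transcripts annotated as protein coding alone. For Zc3h12b the window was the 596 bases of Zc3h12b-202, and the 6569 bases of 3′ UTR of Zc3h12b-203 were not searched.

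The values are TPM, a relative abundance per transcript length that adds up to 1000000 in each library. Read numbers cannot be recovered from it, so the depth of the libraries is unknown and counting error is not given. The test was limma on log2(TPM + 1) with a term for the library set. It took in the 12874 genes that reached a TPM of 1 in 5 or more libraries, and p values were adjusted over all of them with the procedure of Benjamini and Hochberg (FDR). Adding 1 before the log makes changes look smaller at the low levels that most of the 9 genes had. At FDR under 0.05, the libraries labelled Reg1Δ/Δ were higher in 15.0% of these genes and lower in 37.9%. The median log2 fold change was −0.25. It moved up by 0.40 with quantile normalization and by 0.30 with median-of-ratios scaling, under which 3861 genes were higher and 2636 lower, and 3973 higher and 3425 lower, in place of 1933 and 4880. The library sets differed in make-up. Protein-coding transcripts held 46.2% to 49.1% of the TPM in set 1 and 73.5% to 81.1% in set 2, and 64790 to 72706 transcripts had a TPM above 0 in set 1 against 38071 to 44203 in set 2.

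The sorted cells were checked against marker genes. Kit and Ly6a, which encode the c-Kit and Sca-1 of the sort, were present in every library, at 56.1 to 367 TPM for Kit and 50.9 to 449 TPM for Ly6a. Cd34, whose protein the sort excludes, was at 51.9 to 236 TPM in the controls and 9.54 to 19.8 TPM in the libraries labelled Reg1Δ/Δ. Of 12 stem-cell gate and identity genes, 10 were lower and 0 higher by limma, with a median log2 fold change of −2.68. Over all tested genes 37.9% were lower and 15.0% higher (median −0.25), and each marker list below stands beside these shares. The stem-cell regulator Hlf fell from 153.8 to 1.89 TPM in set 1, with Procr among the lowest too (log2 fold change −4.13). The summed TPM of 11 B-lineage markers was 185 to 1593 in the controls and 2.77 to 24.0 in the libraries labelled Reg1Δ/Δ, and all 9 tested were lower (median −6.00). Summed T- and NK-cell markers ran from 33.2 to 62.4 TPM against 3.97 to 5.36 TPM, with 2 of 2 tested lower (median −2.50, Lck −3.21, Cd4 −1.79). Cd3g was at 0 in both libraries of set 2 labelled Reg1Δ/Δ. Granulocyte and monocyte markers summed to 2892 to 13342 TPM in the controls and 310.4 to 1074 TPM in the other group, with 10 of 13 lower (median −2.68), led by S100a9, S100a8 and Ngp. Ly6g was at 0 in both libraries of set 2 labelled Reg1Δ/Δ. Megakaryocyte markers were lower in 4 of 4 tested (median −1.69), with Gp9 at −2.15, Pf4 at −2.10 and Gp1bb at −1.29. Of 9 erythroid markers, 3 were higher (Car1, Klf1 and Epor, log2 fold changes 2.24, 1.80 and 1.44) and 5 lower (among them the globins Hbb-bs, Hba-a2 and Hba-a1, −3.19, −3.00 and −2.50). Fgd5, Ms4a1 and Ly6g, counted as lower among the stem-cell, B-lineage and granulocyte genes, reached 1 TPM in the 5 controls alone. They thus passed the filter through the group where they were higher. In bulk RNA, fewer cells of a type and less RNA per cell cannot be told apart, and the part of these marker shifts in the levels below was not tested.

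Among the 9 genes, Upf1 had the highest level in every group, with ranges apart from the next gene. In the controls of set 1 the order below it was Malt1, Rc3h2 and Rc3h1, whose ranges overlapped, then N4bp1, then Zc3h12a, Zc3h12b, Zc3h12c and Zc3h12d, each overlapping the next. The libraries of set 1 labelled Reg1Δ/Δ had Rc3h1 and Zc3h12a next to Upf1, and those of set 2 had N4bp1 and Zc3h12a there, with overlapping ranges in each pair. Zc3h12a stood at rank 6 of 9 in the controls of set 1, at rank 5 in those of set 2, where its range overlapped that of both neighbours, and at rank 3 of 9 in both groups of libraries labelled Reg1Δ/Δ. In all 4 groups, Zc3h12b, Zc3h12c and Zc3h12d filled the last places.

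**Figure D1:**
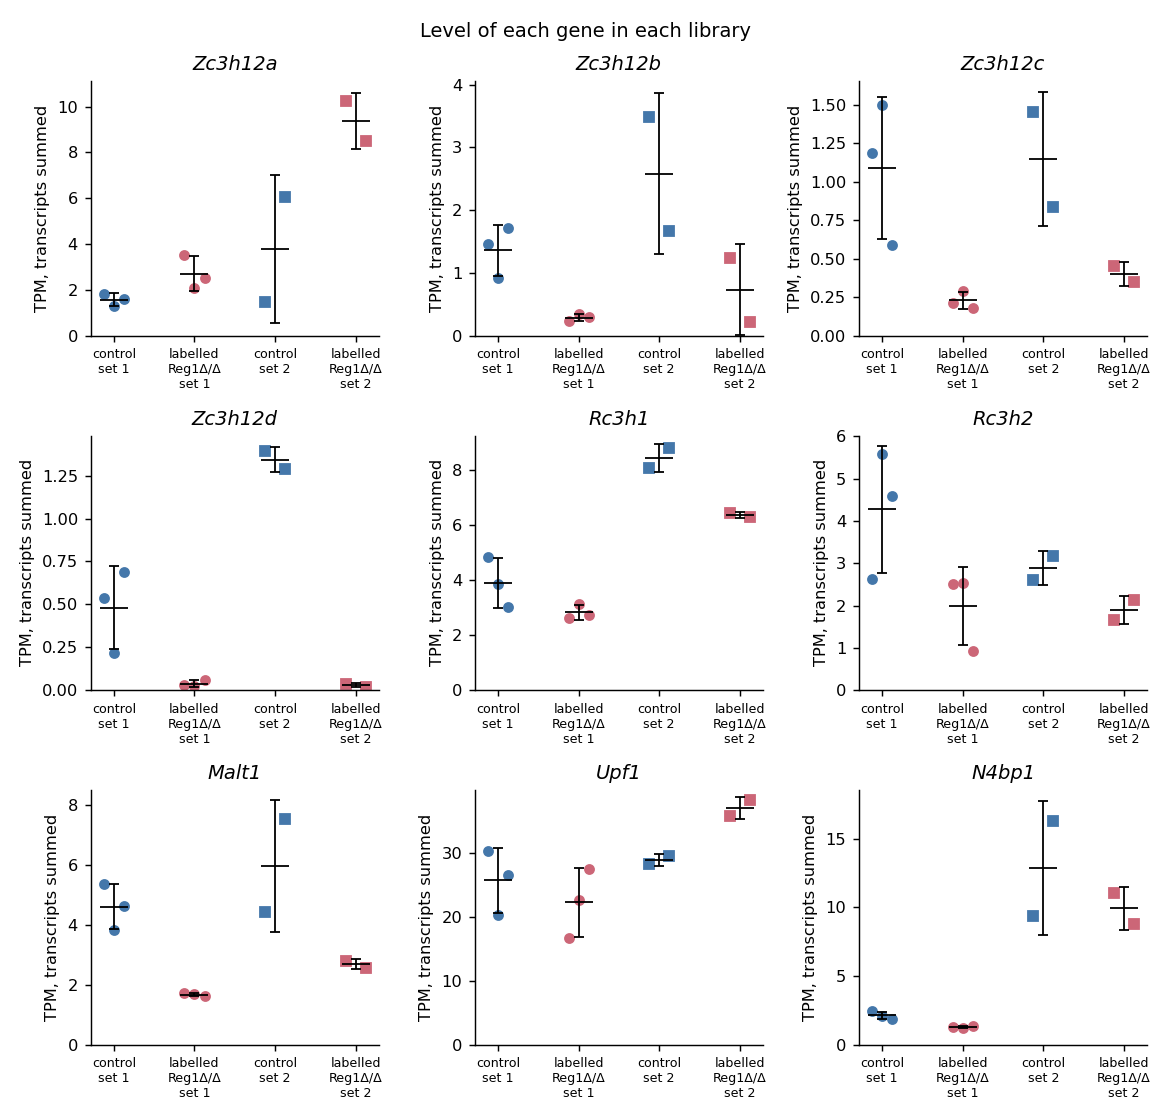
Level of each of the 9 genes in TPM, with the transcripts of a gene summed. Circles are libraries of set 1 and squares of set 2, blue marks controls and red the libraries labelled Reg1Δ/Δ, and the black bars give the mean ± SD (n = 3 in set 1, n = 2 in set 2). Zc3h12a sits higher in the red group of both sets, while Zc3h12b, Zc3h12c, Zc3h12d, Rc3h2 and Malt1 sit lower with no overlap within a set.

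Zc3h12a, the gene that the label says was deleted, lies at chr4:125118423-125127840 on the minus strand. Control libraries had 1.83, 1.28 and 1.60 TPM in set 1 and 1.48 and 6.07 TPM in set 2. Those labelled Reg1Δ/Δ had 3.54, 2.08 and 2.51 TPM in set 1 and 10.3 and 8.52 TPM in set 2. Every library labelled Reg1Δ/Δ was thus above every control of its set, against the label, which is why directions are given by label throughout. The files do not show whether the labels are right, and exchanged labels would invert every direction given here. The log2 fold change was 0.83 (FDR = 0.0314 by limma, with a standard error, SE, of 0.28), and it stayed above 0 under both other scalings. The exact permutation test within sets gave p = 0.0167 (two-sided), the smallest p that its 120 assignments allow. A block for the replicate number raised the FDR to 0.0505, and it was 0.0897 with no filter, 0.214 with no term for the set, 0.0527 in set 1 alone and 0.265 in set 2 alone. The log2 fold change itself was 0.52 in set 1 alone, 1.30 in set 2 alone and 0.53 (FDR = 0.0121) without control replicate 1 of set 2. The FDR also rose to 0.0595 without control replicate 2 of set 1, and to 0.0680, 0.0768 and 0.0662 without replicate 1 of set 1, replicate 1 of set 2 and replicate 2 of set 2 of the libraries labelled Reg1Δ/Δ.

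The coding transcript of Zc3h12a carried the difference. Zc3h12a-201, of 6 exons and 2755 bases, was at 1.18, 1.15 and 1.36 TPM in the controls of set 1 and at 1.48 and 3.60 TPM in those of set 2. Those labelled Reg1Δ/Δ had 1.86, 2.08 and 2.45 TPM in set 1 and 9.43 and 8.52 TPM in set 2, again with no overlap. Its log2 fold change was 0.92 (SE 0.25, FDR = 0.0272 by limma over 31937 transcripts, of which 6.40% were higher and 14.9% lower), and the FDR was 0.0803 with the replicate block. Without replicate 3 of set 1, replicate 1 of set 2 or replicate 2 of set 2 of the libraries labelled Reg1Δ/Δ it was 0.0570, 0.0643 and 0.0648. The other transcript, Zc3h12a-202, is a retained intron of 660 bases and ran from 0 to 2.47 TPM with no order by label. Its largest value was in control replicate 2 of set 2, the same library that had the highest Zc3h12a level of the controls.

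The files give 1 value per transcript and none per exon, so they do not show which exons were read in the libraries labelled Reg1Δ/Δ. The primers with which the study measured Regnase-1 by qRT-PCR are shown because they mark which exons that other assay read.
Forward primer: agtggaaacgcttcatcgag
Reverse primer: gtgctcagaaggcagtggtt
The forward primer matched exon 4 of Zc3h12a-201 at chr4:125120907-125120926, and the reverse primer matched exon 5 at chr4:125120348-125120367. The product is 140 of the 2755 bases of Zc3h12a-201. Both primers also match the retained-intron transcript Zc3h12a-202, in its exons 2 and 3, and no other gene in the annotated transcripts.

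The paralogues of Regnase-1 were at low levels throughout. Zc3h12b, the gene of Regnase-2, lies at chrX:95711678-95932637. It was at 1.47, 0.912 and 1.71 TPM in the controls of set 1 and at 3.49 and 1.67 TPM in those of set 2. In the libraries labelled Reg1Δ/Δ it was at 0.227, 0.345 and 0.293 TPM in set 1 and at 1.24 and 0.223 TPM in set 2, below every control of the same set. Its log2 fold change was −0.94 (SE 0.20, FDR = 0.00336 by limma) and −0.046 (FDR = 0.833) with quantile normalization, and it did not pass in set 2 alone (−1.06, FDR = 0.239). Zc3h12b passed the filter through 4 controls and 1 library labelled Reg1Δ/Δ, so its passing was itself tied to its being higher in the controls. Very little of this RNA was assigned to coding transcripts. The highest transcript by mean, Zc3h12b-204, is a processed transcript, at 0.603 to 1.19 TPM in the controls and 0.0878 to 0.482 TPM in the other group. Coding transcripts held at most 6.27% of the gene's TPM in 8 of the 10 libraries, and 67.1% and 45.4% in replicate 1 of the controls and of the libraries labelled Reg1Δ/Δ of set 2.

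Zc3h12c and Zc3h12d did not pass the filter, as only 3 and 2 libraries, all controls, reached 1 TPM. Zc3h12c encodes Regnase-3 and lies at chr9:52111344-52168572 on the minus strand. It was at 1.19, 1.50 and 0.591 TPM in the controls of set 1 and at 1.46 and 0.840 TPM in those of set 2. The libraries labelled Reg1Δ/Δ had 0.216, 0.291 and 0.181 TPM in set 1 and 0.456 and 0.347 TPM in set 2, all below the controls of their set. Regnase-4 is encoded by Zc3h12d, at chr10:7832470-7870396 on the plus strand, and is known from lymphocytes. Its controls were at 0.539, 0.215 and 0.686 TPM in set 1 and at 1.39 and 1.29 TPM in set 2. In the libraries labelled Reg1Δ/Δ it was at 0.0282, 0.0242 and 0.0622 TPM in set 1 and at 0.0374 and 0.0195 TPM in set 2. The mean was 12.6-fold lower in set 1 and 47.2-fold lower in set 2, the widest gap of the 9 genes, although values this near 0 make such a ratio unstable. The exact permutation test gave p = 0.0167 for each of the 2 genes, again the smallest p possible. The summed B-lineage markers, at 185 to 1593 TPM in the controls and 2.77 to 24.0 TPM in the other group, were also lower by label. Within the controls of set 1 the order differed. Zc3h12d was at 0.539 and 0.215 TPM in replicates 1 and 2, where the B-lineage marker Cd79a was at 15.7 and 102 TPM. The part of B-lineage cells in the level of Zc3h12d was not tested.

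The groups overlapped in the summed level of the family but not in the share of Zc3h12a. All 4 Regnase genes together came to 3.91 to 5.03 TPM in the controls of set 1 and 2.74 to 4.01 TPM in the libraries labelled Reg1Δ/Δ. In set 2 the sums were 7.82 to 9.87 TPM and 9.11 to 12.0 TPM. Zc3h12a made up 32.7% to 36.5% of the family in the controls of set 1, and 19.0% and 61.5% in those of set 2. Its share was 75.9% to 88.3% in the libraries of set 1 labelled Reg1Δ/Δ, and 85.5% and 93.5% in those of set 2, above all controls of both sets.

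**Figure D2:**
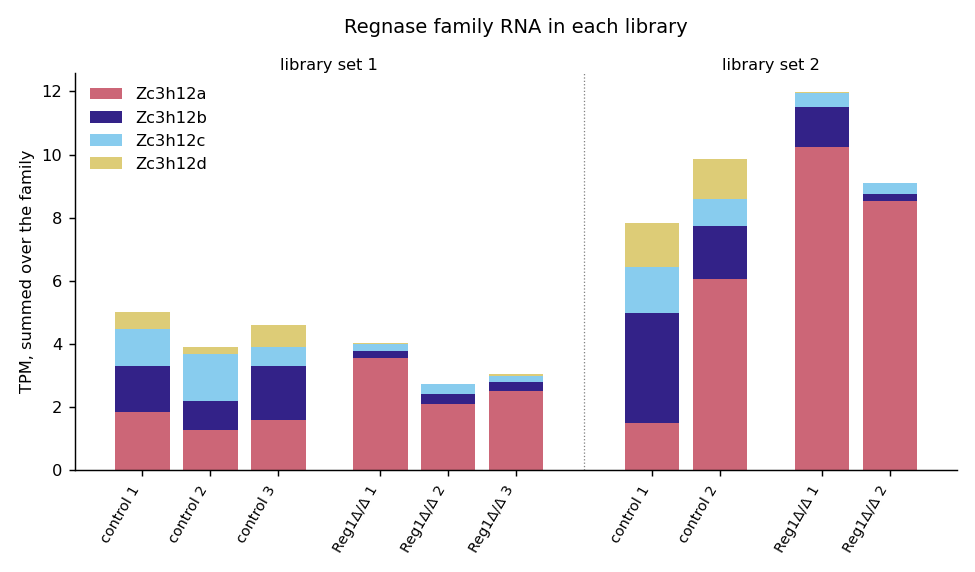
Stacked TPM of the 4 Regnase genes in each library, with set 1 left and set 2 right of the dotted line. The red part, Zc3h12a, fills 75.9% to 93.5% of each bar labelled Reg1Δ/Δ and 19.0% to 61.5% of each control bar.

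The Roquin genes were both lower as deposited, and the sign of both turned with quantile normalization. Rc3h1, at chr1:160906418-160974978 on the plus strand, was at 4.84, 3.84 and 3.03 TPM in the controls of set 1 and at 8.06 and 8.77 TPM in those of set 2. The libraries labelled Reg1Δ/Δ had 2.62, 3.12 and 2.71 TPM in set 1, where 1 value overlapped the controls, and 6.44 and 6.28 TPM in set 2, where none did. Its log2 fold change was −0.35 (SE 0.11, FDR = 0.0274 by limma) but 0.47 (FDR = 0.0119) with quantile normalization. The exact permutation test gave p = 0.0333. Rc3h2, at chr2:37370069-37422903 on the minus strand, was at 2.63, 5.59 and 4.59 TPM in the controls of set 1 and at 2.59 and 3.17 TPM in those of set 2. Against these, libraries labelled Reg1Δ/Δ had 2.51, 2.54 and 0.936 TPM in set 1 and 1.67 and 2.13 TPM in set 2, all below the controls of their set, though by little in set 1. Its log2 fold change was −0.66 (SE 0.22, FDR = 0.0303 by limma) and 0.22 (FDR = 0.497) with quantile normalization, and the exact p was 0.0167. With median-of-ratios scaling Rc3h1 had −0.066 (FDR = 0.621) and Rc3h2 −0.41 (FDR = 0.168). Neither passed in set 1 alone (FDR 0.128 and 0.0693) or in set 2 alone (FDR 0.0825 and 0.161). With the replicate block the FDR of Rc3h1 was 0.0524, with coding transcripts alone 0.111 (log2 fold change −0.29), with a trend in the eBayes step 0.0578 and with no term for the set 0.508. That of Rc3h2 was 0.0806 with no filter and 0.0646 with no term for the set. For Rc3h1 it was 0.0509 to 0.0636 without control replicate 1 of set 1, control replicate 2 of set 2, or replicate 1 or 3 of set 1 or either replicate of set 2 labelled Reg1Δ/Δ. For Rc3h2 it was 0.0531 to 0.0711 without control replicate 2 or 3 of set 1, control replicate 2 of set 2, or replicate 3 of set 1 or replicate 1 of set 2 labelled Reg1Δ/Δ.

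The transcripts of Rc3h1 changed places between the library sets. Rc3h1-201, of 3476 bases with 20 bases of 3′ UTR, and Rc3h1-202, of 11006 bases with 7181 bases of 3′ UTR, have coding sequences of 3366 and 3393 bases. In set 1 the short transcript was at 4.02, 2.87 and 2.71 TPM in the controls and at 2.15, 2.35 and 2.27 TPM in the libraries labelled Reg1Δ/Δ, and the long one was at 0.326 to 0.601 TPM in all 6. The order was the other way in set 2, with the long transcript at 5.42 and 8.02 TPM in the controls and 4.73 and 4.25 TPM in the libraries labelled Reg1Δ/Δ. The short one was at 0.0714 and 0.748 TPM in the controls of set 2 and at 1.71 and 2.03 TPM in the libraries labelled Reg1Δ/Δ. The long transcript thus held 10.7% to 18.1% of the pair in the 6 libraries of set 1 and 67.7% to 98.7% in the 4 of set 2. The Rc3h1 stem-loop shown above is in the 3′ UTR of this long transcript. By label its share differed by less than the test could resolve over both sets (−7.88 percentage points, exact permutation test, two-sided, p = 0.300), although in set 2 both controls, at 98.7% and 91.5%, were above both libraries labelled Reg1Δ/Δ, at 73.5% and 67.7%. The short transcript was thus lower without overlap in the libraries of set 1 labelled Reg1Δ/Δ (log2 fold change −0.35) and higher without overlap in those of set 2 (1.06), and this difference between the sets was not tested. Over both sets its log2 fold change was 0.21 (SE 0.28, FDR = 0.625 by limma). The estimate splits reads between transcripts that share most of their coding exons, so it rests on the parts that differ. These are mostly 3′ UTR, with 5′ UTRs of 90 and 432 bases besides, and coverage along the transcripts is not given. Transcript make-up also differed between the sets as a whole, and its part in this was not tested.

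**Figure D3:**
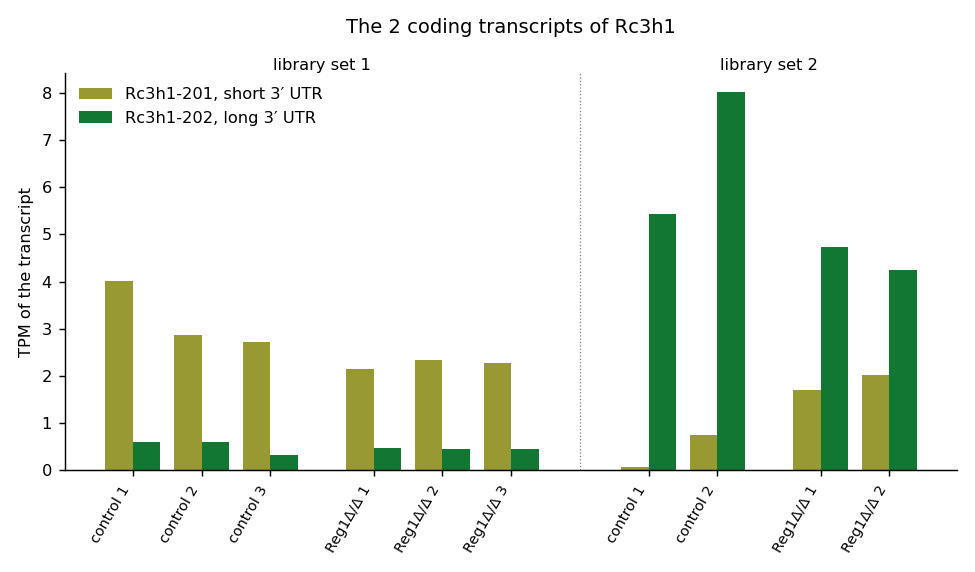
TPM of the short (Rc3h1-201) and the long (Rc3h1-202) coding transcript of Rc3h1 in each library. The short transcript is the higher bar in all 6 libraries of set 1 and the long one in all 4 of set 2, in controls and in libraries labelled Reg1Δ/Δ.

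Rc3h2 was spread over 10 transcripts, none of which passed the filter. The highest by mean, Rc3h2-204, is a processed transcript of 513 bases, at 0 to 2.15 TPM in set 1 and 0 in all libraries of set 2. Coding transcripts held 21.9% to 75.7% of the TPM of Rc3h2 in set 1 and 52.2% to 100% in set 2.

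Malt1 had the lowest FDR of the 7 tested genes. Its controls were at 5.37, 3.85 and 4.63 TPM in set 1 and at 4.42 and 7.54 TPM in set 2. The libraries labelled Reg1Δ/Δ had 1.71, 1.68 and 1.63 TPM in set 1 and 2.81 and 2.57 TPM in set 2, below every control of both sets. The mean was 2.76-fold lower in set 1 and 2.22-fold lower in set 2. Its log2 fold change was −0.99 (SE 0.14, FDR = 2.66e-04 by limma), which held with the replicate block and without any 1 of the 10 libraries (FDR 5.75e-05 to 0.00113). It did not pass in set 2 alone (−0.88, FDR = 0.146). With quantile normalization it was −0.12 (FDR = 0.407), and −0.72 (FDR = 0.000635) with median-of-ratios scaling. The exact permutation test gave p = 0.0167. The coding transcript ENSMUST00000049248.5 was at 3.05 to 5.66 TPM in the controls and 0.994 to 2.66 TPM in the libraries labelled Reg1Δ/Δ, with a log2 fold change of −0.93 (SE 0.14, FDR = 0.00124 by limma).

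Upf1, the helicase of nonsense-mediated decay, did not pass the test. It lies at chr8:70331525-70353278 on the minus strand, and its end overlaps the ends of Cers1 and Gdf1 on the other strand. The controls were at 30.3, 20.3 and 26.5 TPM in set 1 and at 28.2 and 29.5 TPM in set 2. Those labelled Reg1Δ/Δ had 16.7, 22.6 and 27.4 TPM in set 1, overlapping the controls, and 35.7 and 38.2 TPM in set 2, above them. The log2 fold change was 0.01 (SE 0.18, FDR = 0.956 by limma), with −0.21 (FDR = 0.473) in set 1 alone and 0.35 (FDR = 0.0845) in set 2 alone. With median-of-ratios scaling it was 0.35 (FDR = 0.0729), and 0.31 (FDR = 0.0986) with quantile normalization. The exact permutation test gave p = 0.90. Its transcripts Upf1-202 and Upf1-201, both coding and with the same length of 3′ UTR (958 bases), had log2 fold changes of 0.16 (SE 0.20, FDR = 0.603) and −0.43 (SE 0.27, FDR = 0.285) by limma. Upf1-202 was at 14.9 to 31.0 TPM and Upf1-201 at 1.73 to 11.7 TPM over the 10 libraries.

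N4bp1 encodes an RNase-like protein that MALT1 also cleaves, and lies at chr8:86808160-86885258 on the minus strand. The controls had 2.42, 2.09 and 1.90 TPM in set 1 and 9.39 and 16.3 TPM in set 2. Those labelled Reg1Δ/Δ had 1.31, 1.18 and 1.36 TPM in set 1, below the controls, and 11.0 and 8.83 TPM in set 2, where the groups overlapped. Its log2 fold change was −0.39 (SE 0.15, FDR = 0.0451 by limma) but 0.41 (FDR = 0.0484) with quantile normalization and −0.14 (FDR = 0.382) with median-of-ratios scaling, and the exact p was 0.0333. The call was lost with the replicate block (FDR = 0.0913), in set 2 alone (FDR = 0.590), with no term for the set (FDR = 0.767), with no filter (FDR = 0.0809), with a trend in the eBayes step (FDR = 0.0699) and in 8 of 10 fits with 1 library left out, the exceptions being control replicate 1 and replicate 1 labelled Reg1Δ/Δ of set 2 (highest FDR 0.103, without control replicate 2 of set 2). The distance between the library sets was larger than that between the labels, as the mean of N4bp1 was 6.01-fold higher in set 2 in the controls and 7.74-fold higher in the libraries labelled Reg1Δ/Δ. Its coding transcript N4bp1-201 showed a log2 fold change of −0.38 (SE 0.16, FDR = 0.125 by limma).

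By limma, 1 of the 7 tested genes (Zc3h12a) was higher and 5 were lower (Zc3h12b, Rc3h1, Rc3h2, Malt1 and N4bp1), with a median log2 fold change of −0.39, beside 15.0% and 37.9% of all tested genes and a median of −0.25. With quantile normalization 3 of the 7 were higher (Zc3h12a, Rc3h1 and N4bp1) and 0 lower, beside 3861 and 2636 of all 12874 genes. With median-of-ratios scaling 1 was higher and 2 lower, beside 3973 and 3425 of all. Relative to the median of all genes, Zc3h12a was up by 1.09, 1.59 and 1.03 under the deposited scale, quantile normalization and median-of-ratios scaling. Malt1 was below that median by all 3, at −0.74, −0.27 and −0.77. Zc3h12a was above, and Zc3h12b, Rc3h2 and Malt1 were below, all controls of their own set in both sets. Over all tested genes, 12.7% were without overlap in both sets in the higher direction and 31.4% in the lower.

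**Figure D4:**
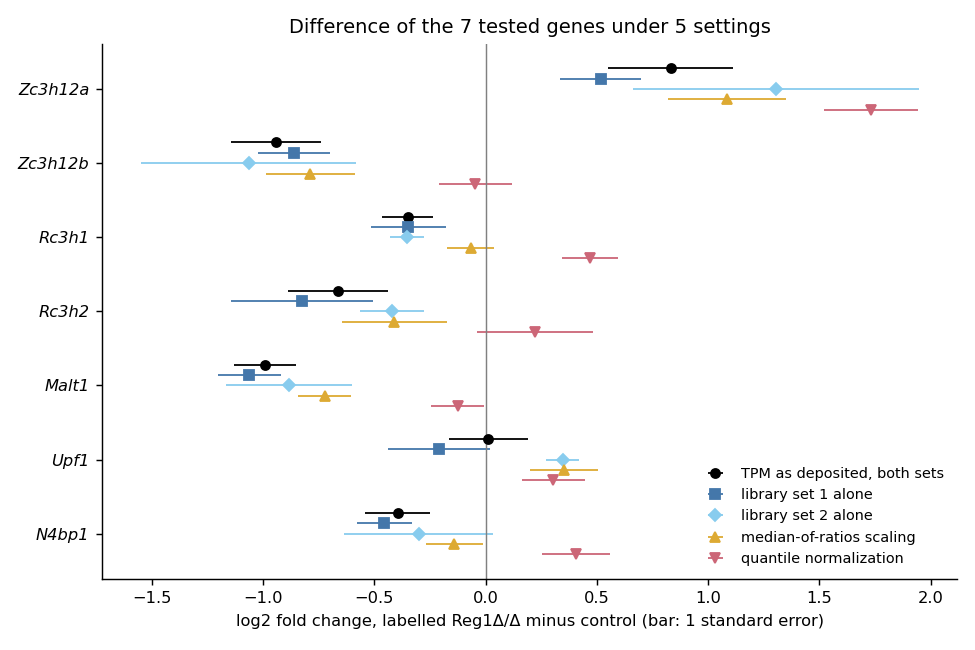
Log2 fold change (libraries labelled Reg1Δ/Δ minus controls) of the 7 tested genes under 5 settings, with bars of 1 standard error. Zc3h12a lies right of 0 in all 5, while Rc3h1, Rc3h2 and N4bp1 lie left of 0 as deposited and right of it with quantile normalization.

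No interaction of label and library set passed the test in the 7 genes. The estimate ran from −0.20 (Zc3h12b) to 0.79 (Zc3h12a, standard error 0.54) on the log2 scale, with FDR from 0.536 (Upf1) to 0.992 by limma, where 0.443% of all tested genes were called. The share of a gene's TPM held by coding transcripts was tested in the 6 genes that had both kinds of transcript and a TPM above 0 in every library. No call was made, where 0.182% of 8228 genes were called. The estimates were 8.78 percentage points for Zc3h12a (SE 11.6), 7.13 for Rc3h1, 0.92 for N4bp1, −4.39 for Rc3h2, −5.86 for Malt1 (SE 3.07) and −7.85 for Zc3h12b. That of Rc3h1 fell to 0.89 without control replicate 1 of set 2, and that of Zc3h12a ran from 1.35 without control replicate 2 of set 2 to 17.8 without replicate 1 of set 1 labelled Reg1Δ/Δ. For Zc3h12c, Zc3h12d and Upf1, coding transcripts held all of the TPM.

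The signals that reach MALT1 were followed in 23 genes of the CBM complex and the kinases around it. Of the 20 tested, 1 was higher (Myd88, log2 fold change 0.42) and 11 lower, with a median of −0.48, beside 15.0% and 37.9% of all tested genes and a median of −0.25. With quantile normalization the counts were 6 and 7, beside 3861 higher and 2636 lower of all 12874 tested genes. The same all-gene counts stand beside the quantile counts of each list below. Among those lower, the receptor adaptor Traf3ip2 (Act1) fell from 19.5 to 3.30 TPM in set 1 and from 6.42 to 2.17 TPM in set 2 (log2 fold change −1.82, FDR = 1.44e-04 by limma). Ikbke, a kinase of the innate response that with Act1 is known to phosphorylate Regnase-1, fell from 15.2 to 3.31 TPM and from 9.12 to 2.74 TPM (−1.71). Card9, the CARD partner of BCL10 in myeloid cells, showed a log2 fold change of −1.32. The summed granulocyte and monocyte markers were lower in the same libraries, and their part in Card9 was not tested.

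Of 7 other substrates of MALT1, 5 were lower and 0 higher, with a median of −0.87, beside 15.0% higher and 37.9% lower over all tested genes. Called lower and higher were 4 and 1 with quantile normalization, 5 and 2 with median-of-ratios scaling, and 0 and 0 in set 2 alone. In these settings 2636 and 3861, 3425 and 3973, and 1581 and 452 of all 12874 tested genes were called lower and higher. Bcl10 and Tab3 stand on both of these lists. Tnfaip3 (A20), an inhibitor of NF-κB signalling, fell from 6.78 to 1.01 TPM in set 1 and from 7.22 to 2.21 TPM in set 2 (−1.68, FDR = 1.39e-04 by limma). Map3k14, the NIK kinase, was at 2.51 and 3.37 TPM in the controls of the sets and at 0.175 and 0.402 TPM in the libraries labelled Reg1Δ/Δ (−1.59), and reached 1 TPM in the 5 controls alone, so that it passed the filter through the group where it was higher. The NF-κB subunit Relb showed a log2 fold change of −1.38. All 3 stayed negative under both other scalings.

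Nonsense-mediated decay factors other than Upf1 moved in both directions. Of 22 tested, 6 were higher and 6 lower (median −0.12, beside 15.0% and 37.9% of all tested genes), and with quantile normalization 10 and 1. The release factors Etf1 and Gspt1 had log2 fold changes of 0.78 and 0.45, and the exon junction component Magohb 0.70. Gspt2, Upf2 and Casc3 had −0.91, −0.55 and −0.25 as deposited and turned to 0.031, 0.069 and 0.079 with quantile normalization, and Casc3 also with median-of-ratios scaling (0.088). Upf2, which binds UPF1, was at 5.57 and 24.3 TPM in the controls of the sets and at 3.40 and 16.9 TPM in the libraries labelled Reg1Δ/Δ.

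Deadenylases are the enzymes that Roquin recruits. The list took in CCR4-NOT subunits and adaptors as well as deadenylases. Of its 19 tested genes, 2 were higher and 11 lower (median −0.35, and 3 and 8 with quantile normalization), where 15.0% and 37.9% of all tested genes were called. Cnot9 was not analysed here under that name, and its older symbol Rqcd1, a subunit of the CCR4-NOT complex, showed a log2 fold change of 0.43. The antiproliferative adaptors Btg2 and Btg1 bind the CCR4-NOT deadenylases. Btg2 fell from 24.1 to 1.38 TPM in set 1 and from 16.7 to 2.10 TPM in set 2 (−2.90, FDR = 7.30e-05 by limma), and Btg1 had −1.67. Tnks1bp1 had −1.91, from 1.69 and 9.31 TPM to 0.186 and 0.0891 TPM, and passed the filter through the 5 controls alone.

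Genes of decapping and of the exonucleases, which degrade the pieces left by cutting, were tested in 33 members. Of these, 14 were higher and 3 lower (median 0.19), beside 15.0% and 37.9% of all genes, and with quantile normalization 19 and 0. Exosc8, a subunit of the exosome, rose from 161 to 360.1 TPM in set 1 and from 166 to 249.9 TPM in set 2 (log2 fold change 0.93, FDR = 2.82e-04 by limma), and Lsm7, of the ring that binds shortened mRNAs, had 0.71. Exosc1, another exosome subunit, had 0.68. Ddx6, the helicase of processing bodies, had −0.71 and Dcp1b −0.32, the latter turning to 0.41 (FDR = 0.00286) with quantile normalization.

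Of 31 mRNAs reported as targets of Regnase-1 or Roquin, 13 were tested. Of these 1 was higher and 7 lower (median −0.63), beside 15.0% and 37.9% of all tested genes. With quantile normalization 1 was higher and 5 lower, beside 3861 and 2636 of all 12874. Il12b and Calcr were not analysed here, and the list leaves out Gata2 and Tal1, which the study itself examined as targets. The gene that was higher, Tfrc, encodes the transferrin receptor of iron uptake. It rose from 44.3 to 166 TPM in set 1 and from 53.9 to 283 TPM in set 2 (log2 fold change 2.07, FDR = 2.09e-05 by limma). Of 9 erythroid markers, Car1, Klf1 and Epor were higher in the same libraries and 5 were lower, among them the globins Hbb-bs, Hba-a2 and Hba-a1. The part of erythroid cells in the level of Tfrc was not tested. Among those lower, Rel (c-Rel) was at 1.84 and 3.40 TPM in the controls of the sets and at 0.0807 and 0.200 TPM in the libraries labelled Reg1Δ/Δ (−1.57). It reached 1 TPM in the 5 controls alone, so its place among the tested genes was tied to its being higher there. Txnip and Ier3 had −2.09 and −2.08. Relatives with a PIN-like domain and genes that share partners with N4BP1 were 1 higher and 5 lower of 11 tested (median −0.39, and 2 and 2 with quantile normalization), near the 15.0% and 37.9% of all tested genes. Nynrin, whose NYN nuclease-like domain resembles that of N4BP1, had −2.11 but passed the filter through the 5 controls alone, Khnyn −1.60 and N4bp2 −0.86.

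**Figure D5:**
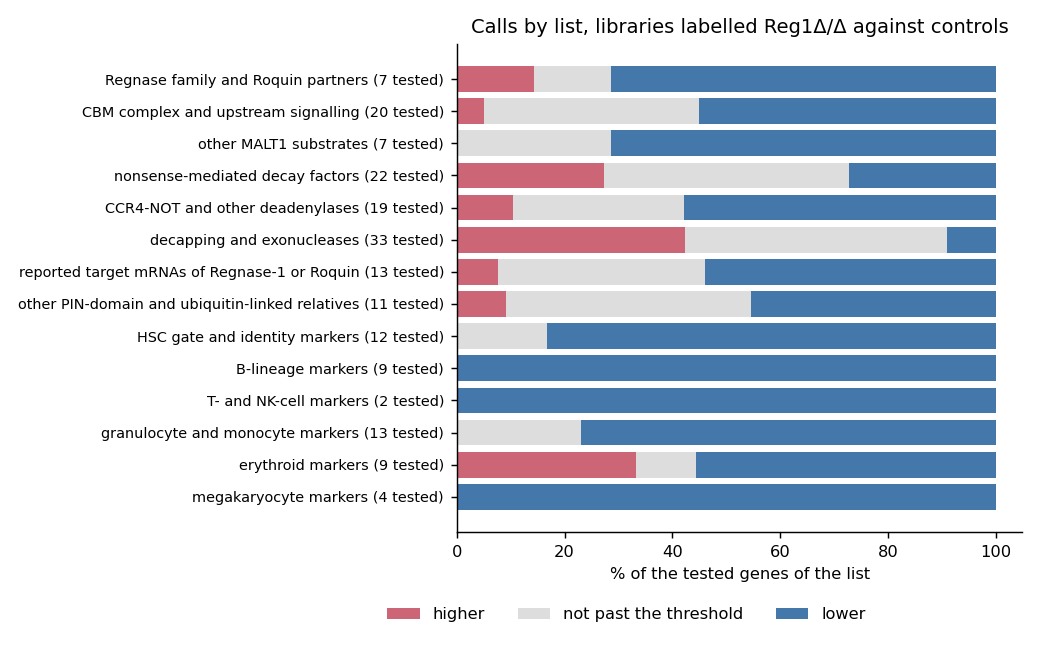
Share of the tested genes of each list that were higher (red), lower (blue) or not past FDR 0.05 (grey) by limma on the deposited scale, libraries labelled Reg1Δ/Δ against controls. The list of decapping and exonuclease genes has the largest red part among the decay lists (14 of 33), and B-lineage, T- and NK-cell and megakaryocyte markers are blue throughout. With quantile normalization, 3 of the 7 genes in the top bar are higher and 0 lower, beside 3861 and 2636 of all 12874 tested genes.

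The 5 genes whose pattern was most like that of Zc3h12a were Wdr70, Mtor, Btbd19, Bbs12 and Engase, out of 10040 tested genes with a mean of at least 5 TPM. Their Pearson correlation with Zc3h12a was 0.97, 0.96, 0.95, 0.95 and 0.95 over the 10 libraries, after the mean of each library set was subtracted from log2(TPM + 1). This is a description, as the libraries share their sets and labels.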

How the data were processed

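RNA-seq values of the CD34- HSC libraries were used in 4 groups, by genotype label and library set. The authors amplified cDNA with a SMARTer-type kit (the sources name different versions), mapped the reads to GRCm38 with STAR and estimated TPM with Salmon 0.9.1 and GENCODE annotation. The deposited values are log2(TPM + 1), 1 per transcript. TPM was recovered from the log2 values and summed per gene. Testing used limma 3.58.1 in R 4.3.3 (lmFit, eBayes) with the library set as covariate. Tables and plots were made with Python 3.11.15. The 9 genes were given by symbol, and the other lists were the CBM complex and upstream signalling, MALT1 substrates, nonsense-mediated decay, deadenylases, decapping and exonucleases, reported targets, PIN-domain relatives, and markers of stem, B, T and NK, granulocyte and monocyte, erythroid and megakaryocyte cells. Members and lists were chosen with earlier results of these data known. Named from each list were up to 3 higher and 3 lower genes with the largest change at FDR under 0.05 and no overlap within sets. Myd88 was named after its value was seen, as the sole higher gene of its list.

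In set 2 labelled Reg1Δ/Δ, the table of replicate 2 was headed with the name of replicate 1 but held other values, and was assigned by the sample record. Loci, transcript names, 3′ UTRs and stem-loops come from GENCODE on the same build, in a later release than that of the authors, and primers from the study's primer list. The limma script was tested on simulated data. Alternatives were to drop the filter, to ask for 1 TPM in every library, a pseudocount of 0.1, no covariate, a replicate block, each set alone, quantile normalization, median-of-ratios scaling, coding transcripts alone, eBayes with trend and each library left out in turn.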

Additional observations from a re-analysis of the deposited data

Results flagged for a closer look

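Rc3h1-201, the short coding transcript of Rc3h1, moved in opposite directions in the library sets. All 3 libraries of set 1 labelled Reg1Δ/Δ were below all controls of that set, and both libraries of set 2 labelled Reg1Δ/Δ were above both controls of theirs. The log2 fold change was −0.35 in set 1 and 1.06 in set 2, and set 2 minus set 1 came to 1.42. This difference was not tested. It was looked for after the data were seen, in the transcripts of the 9 genes that entered the transcript test in at least 1 setting.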

How the results depend on the processing

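No library depth is known, so what depth limits could not be assessed. For genes called, 716 were higher and 3052 lower without the covariate, 452 and 1581 in set 2 alone, 3861 and 2636 with quantile normalization, and 3973 higher with median-of-ratios scaling. Of the members, 7 were tested except where stated, and 0 were higher with no filter (9 tested), with no covariate, with the replicate block and in either set alone, and 3 with quantile normalization. The number of lower members, 5 as reported, was 3 when every library had to reach a TPM of 1 (5 tested, without Zc3h12b and Rc3h2), 3 with the replicate block, 3 in set 1 alone, 3 with eBayes with trend, 2 with no covariate, 2 with median-of-ratios scaling, and 0 in set 2 alone and with quantile normalization. With 1 library left out in turn, 0 to 1 members were higher and 2 to 5 lower.

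Quantile normalization turned the log2 fold change of Rc3h1 to 0.47, Rc3h2 to 0.22, N4bp1 to 0.41, Gspt2 to 0.031, Upf2 to 0.069, Casc3 to 0.079 and Dcp1b to 0.41, and median-of-ratios scaling turned Casc3 to 0.088. Upf1, near 0 as reported, was 0.35 with median-of-ratios scaling, 0.31 with quantile normalization, −0.21 in set 1 alone, −0.015 with coding transcripts alone and −0.053 to 0.14 with 1 library left out. The interaction of Rc3h1 was 0.037 with a pseudocount of 0.1. The short transcript of Rc3h1 ranged from −0.026 to 0.36 with 1 library left out, the coding share of Zc3h12b from −16.5 to 2.54 percentage points and that of Rc3h2 from −14.6 to 4.74 percentage points. The cause was not tested in any of these.

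Transcripts called higher numbered 1263 with the replicate block, 4010 with median-of-ratios scaling and 1292 to 2329 with 1 library left out. Coding shares called numbered 0 with the replicate block (limma) and 3 to 23 with 1 library left out, beside 15 as reported. Genes called with the replicate block were 1703 higher and 4545 lower. Same-numbered libraries of the groups had correlated deviations of 0.03, 0.18 and 0.07 in set 1 and −0.05 in set 2, so the numbers are not taken to pair the libraries.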
